A study of Mus musculus with 4 samples.

Results

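The genes examined were 9 core members of the Hedgehog pathway, namely the ligands Shh, Ihh and Dhh, the receptor Ptch1, the transducer Smo, the transcription factors Gli1, Gli2 and Gli3, and the inhibitor Hhip. Members were chosen by name, as the rows of a deposited list of Zeb1 peaks whose assigned gene symbol was one of these 9. Of the 17435 peaks in the list, 16 carried such a symbol. They were assigned to 8 of the 9 genes, and Gli1 was without an assigned peak.

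Zeb1 was mapped by chromatin immunoprecipitation and sequencing (ChIP-seq) in D3 cells, an established line of mouse embryonic stem cells, with 3 Zeb1 ChIP libraries and 1 input library. Both groups came from cells in GS, a serum-free medium that held the MEK inhibitor PD0325901 at 1 μM, the GSK-3 inhibitor CHIR99021 at 3 μM and LIF at 20 ng/mL. Chromatin was fixed with 1% formaldehyde and broken to about 200 bp, and an anti-Zeb1 antibody was used at 8 μg for the ChIP libraries. GSK-3 is itself one of the kinases that act on Gli proteins, and its inhibitor was in the medium for all the libraries described. The cells are 1 line under 1 condition, and other conditions were not analysed here.

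Hedgehog ligands are secreted proteins that bind Ptch1 and end its block on Smo. Smo then acts in the primary cilium to turn Gli proteins from repressors into activators, and Ptch1, Hhip and Gli1 are themselves target genes of the pathway. The pathway patterns the neural tube, the limb and the somites, while Zeb1 is a zinc finger factor, known best as a repressor in the epithelial to mesenchymal transition, that binds DNA with the letters CACCTG.

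Each peak has 3 values in the list. Treatment reads and input reads are the authors' mean numbers of reads in the peak, and enrichment is the mean over libraries of the ratio of ChIP to input, each scaled for mapped reads by the authors, so it is not the quotient of both mean read numbers. The list has 1 mean per peak and no value per library, so no spread between libraries can be given and no difference between peaks was tested. The depth of each library is unknown from the list. Over all peaks the median was 47.4 treatment reads (quartiles 35.5 and 64.6), 16 input reads (11.9 and 21.4) and an enrichment of 6.5 (4.91 and 8.53), and the values of the Hedgehog genes are set beside these. A longer peak collects more reads. Reads per kb are therefore also given for the Ihh, Smo, Hhip and main Ptch1 peaks, and for the assigned Hedgehog peaks together. Read numbers printed without per kb are not divided by peak length.

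An assigned peak was present at 8 of the 9 Hedgehog genes, against 53.2% of 21000 protein-coding genes of the reference. The centre of an assigned peak lay within 5 kb of the transcription start site (TSS) for 7 of the 9, against 45.0% of the same genes. Shh and Gli1 were the genes outside this count. By position, whatever gene a peak was assigned to, all 9 genes were overlapped by at least 1 peak, against 53.7% of protein-coding genes. Longer genes are overlapped more often. Among genes within 1.5-fold of the length of each, the share ran from 49.1% for Ihh to 76.6% for Gli3. A peak centre within 5 kb of a reference TSS was present in 8 of 9, against 51.5%. A reference TSS was itself covered by a peak in 8 of 9, all but Gli1, against 47.8%. A peak assigned to another gene overlapped 3 of the 9, which were Shh, Gli1 and Gli2, against 12.6% of protein-coding genes. With 9 genes chosen by name, these counts describe the list and were not tested.

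**Figure D1:**
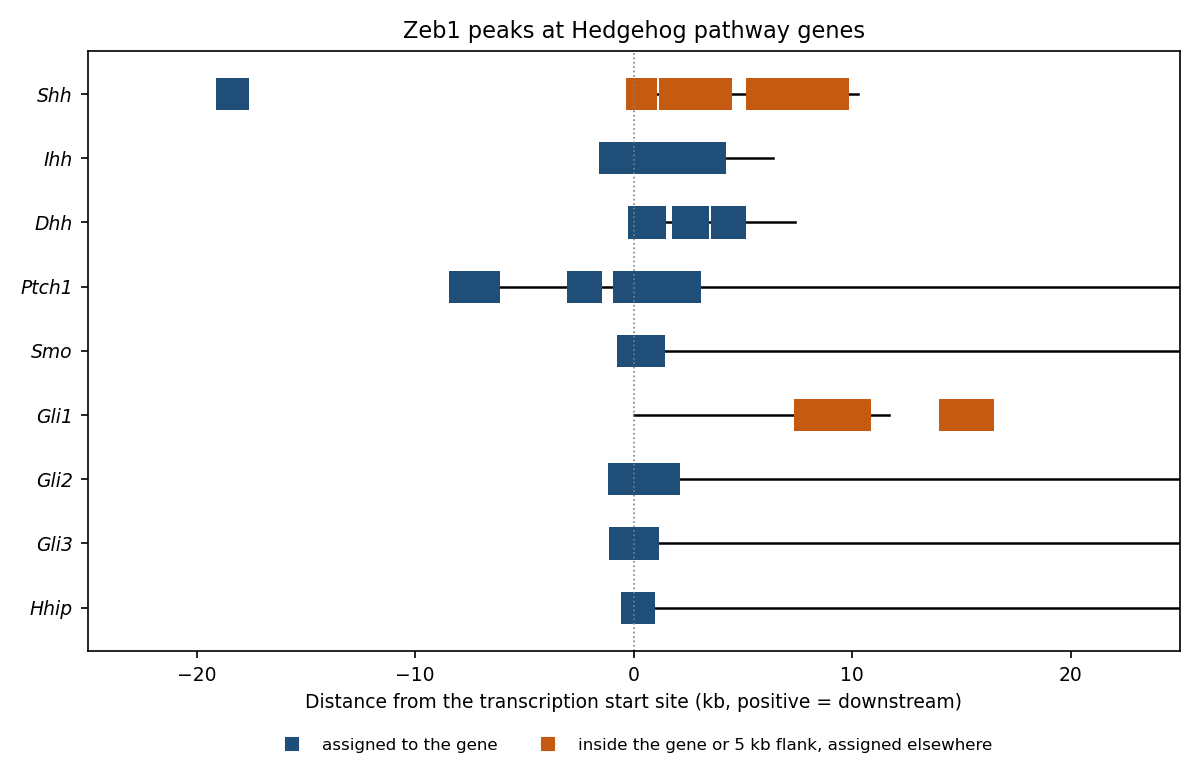
Zeb1 peaks (bars) at the 9 Hedgehog genes, drawn by distance in kb from the TSS, with the gene as a black line and the start site at 0. For Ptch1, 0 is the start site of NM_008957. Blue peaks are assigned to the gene and orange peaks to another gene; at 8 genes a peak covers the start site and at Gli1 none does, against 47.8% of protein-coding genes with a covered start site. Peaks beyond 25 kb at Ptch1, Gli2 and Gli3 are not drawn.

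Of the ligands, Shh is the one that patterns the ventral neural tube and the limb bud. Its only assigned peak, chr5:28484701-28486200 (mm10), lay 18349 bp upstream of the TSS on an L1Md_T LINE-1 element, with 35.6 treatment against 9.86 input reads (enrichment 8.37). The gene itself, chr5:28456840-28467101 on the minus strand, was overlapped by 3 further peaks. All 3 carry the symbol 9530036O11Rik, a long non-coding RNA gene on the opposite strand that starts inside the first exon of Shh.

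The peak at the Shh start site, chr5:28466051-28467450, had its centre 351 bp downstream, in coding sequence of exon 1, and showed 35 treatment reads and an enrichment of 5.25. The next, chr5:28462601-28465950, lay in intron 1 with 84.9 treatment reads and an enrichment of 7.94. The last, chr5:28457251-28461950, ran from exon 2 through intron 2 into the final exon with 101 treatment reads and an enrichment of 7.54. Together they held 88.7% of the bases of the gene and 100% of its coding sequence. Among 3963 protein-coding genes within 1.5-fold of its length, the median share in peaks was 5.35%, and 99.7% of them had a lower share than Shh. By the assignment in the list, none of these 3 peaks counts for Shh.

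Between Shh and Lmbr1, the gene whose intron holds the known limb enhancer of Shh, the reference has 762700 bp. Only 2 peaks fell in this interval, the LINE-1 peak of Shh and a peak at the start of Rnf32 with an enrichment of 7.8. Lmbr1 itself had 2 peaks, 1 at its TSS with an enrichment of 8.22 and 1 in the gene, 22365 bp from the TSS. The second was on an L1Md_T element too, with 84.6 treatment reads and an enrichment of 13.9. The position of the enhancer itself was not used here.

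Ihh, the ligand of growing cartilage and bone, had 1 peak. It was the longest at any of the 9 genes, 5800 bp at chr1:74947451-74953250, and was longer than 98.7% of all peaks. It covered the TSS, exons 1 and 2 and intron 1 of NM_010544, with its centre 1301 bp downstream of the TSS by the list. It had 117 treatment against 24.4 input reads, and its enrichment was 9.28, above 80.9% of peaks. Per kb, its 20.1 treatment reads were above only 24.5% of peaks, and its high read number belongs to a long peak. The peak held 66.4% of the gene, against a median of 0% in genes of like length.

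Dhh, the ligand of the testis and of peripheral nerve sheaths, had 3 peaks in a row that held 64.9% of the gene and 93.8% of its coding sequence. The first, chr15:98897051-98898800, covered the TSS with 48.5 treatment reads and an enrichment of 5.95. The second, chr15:98895101-98896800, lay in intron 1 with 44.3 treatment reads and an enrichment of 7.4. The last, chr15:98893401-98895000, had its centre in coding sequence of exon 3, the last exon, with 53.8 treatment reads and an enrichment of 6.14. All 3 were close to the median peak in treatment reads, between the 44.1 and the 61.3 percentile. The 3 ligand genes are short, and in each of them most bases lay in peaks.

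Ptch1, the receptor that holds Smo back, had 4 assigned peaks, the most of the 9 genes. In the reference, 1.76% of protein-coding genes have at least 4. Its main peak, chr13:63562651-63566700, covered the TSS of NM_008957 and had 143 treatment reads, more than 98.1% of all peaks and the most of any Hedgehog peak. Its input reads, 38, were also above 96.8% of peaks, and its enrichment was 7.73. The peak is 4050 bp long, and per kb it had 35.2 treatment reads, above 86.3% of peaks. Per kb it was below the Smo peak (47.9), the Ptch1 peak described next (36.9), the Gli2 peak in the last exon (36.6) and the Hhip peak (36).

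A peak farther upstream, chr13:63571851-63574200, is given in the list at 7505 bp upstream of the TSS. In the reference it lies at a second start site of Ptch1, that of NM_001328514, with its centre 435 bp downstream of that start. It had 86.7 treatment against 16.1 input reads, and its enrichment was 10.8, above 89.1% of peaks. It was the highest enrichment among the Hedgehog peaks that cover a start site. Between both start sites lay chr13:63567201-63568800, with 39.5 treatment reads and an enrichment of 5.05. The last, chr13:63511101-63512500, was centred in coding exon 23 of 24 and had the lowest enrichment of the 16 assigned peaks, 4.7, with 29 treatment reads.

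Smo, the membrane protein that carries the signal inward, had 1 peak, chr6:29734751-29736950, over its TSS. Its centre lay 353 bp downstream, in the 5′ UTR in exon 1. It had 105 treatment against 21.9 input reads, and its enrichment was 9.84, above 84.4% of peaks. Per kb it had 47.9 treatment reads, above 97.5% of all peaks and the highest density of the Hedgehog peaks. The peak held 5.62% of the gene, against a median of 3% in genes of like length.

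**Figure D2:**
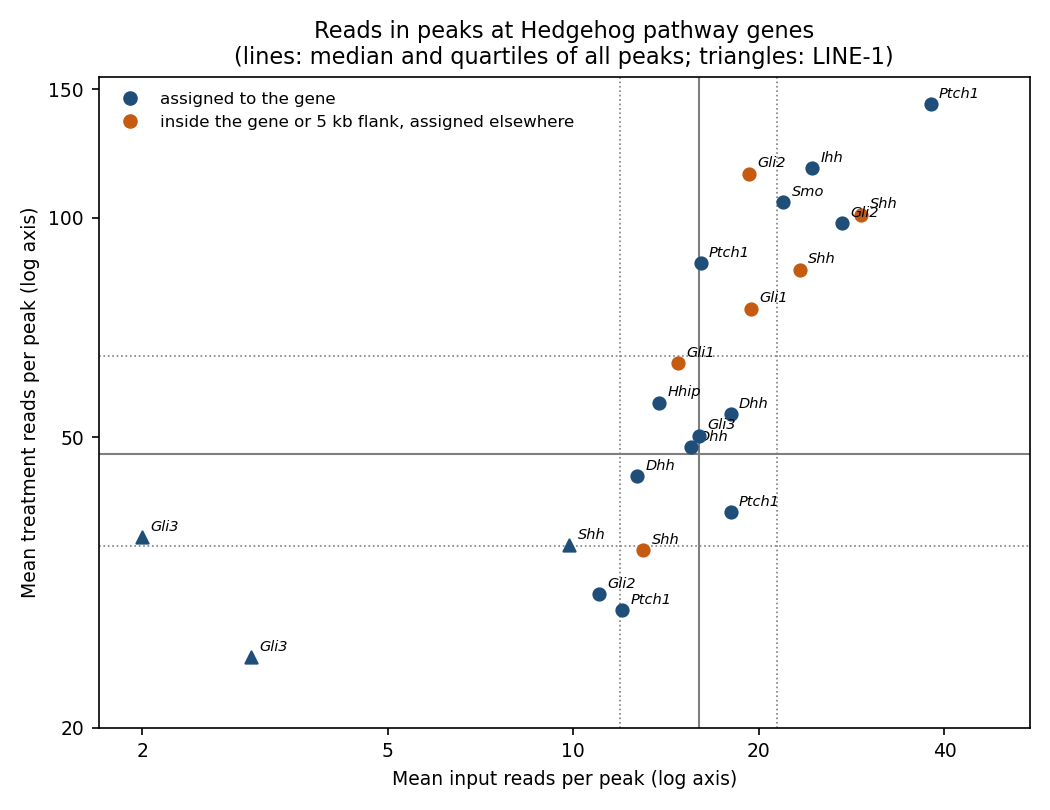
Mean treatment reads against mean input reads (both log axes) for each peak at the 9 genes, with the median (solid) and quartiles (dotted) of all 17435 peaks. Blue points are peaks assigned to the gene, orange points peaks in or next to the gene assigned elsewhere, and triangles LINE-1 peaks. The main Ptch1 peak is at the top right with 143 treatment reads, and both LINE-1 peaks of Gli3 stand at the left with 2 and 3 input reads.

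Gli1, the activator that the pathway induces, had no peak near its TSS. The nearest peak centre was 9104 bp away, downstream, in the gene. That peak, chr10:127330701-127334250, was centred in coding exon 12 of 13 and had 75.1 treatment against 19.4 input reads, and its enrichment was 7.7. A second, chr10:127325101-127327600, lay 2281 bp past the end of the gene with 63.2 treatment reads and an enrichment of 9.2. Both carry the symbol of the neighbouring gene Arhgap9, so the absence of an assigned peak does not mean that the gene was free of peaks. The exonic peak held 49.4% of the coding sequence of Gli1.

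Gli2, the main activator at the start of signalling, had a peak over its TSS, chr1:119051501-119054800, with 98.4 treatment against 27.3 input reads (enrichment 7.36). Its second assigned peak, chr1:119089051-119090750, lay 36281 bp upstream on a B4A SINE element with 30.5 treatment reads and an enrichment of 5.4. The strongest peak of the gene was not assigned to it. In the last exon, chr1:118835601-118838750 had 115 treatment against 19.3 input reads, and its enrichment was 11.9, above 92.5% of peaks. The list gives it to Tfcp2l1, a gene of the naive pluripotent state, at a distance of 209230 bp. This peak took the share of Gli2 coding sequence in peaks to 51.6%, while only 2.4% of the whole gene was in peaks. A peak farther upstream, in the interval between Gli2 and Inhbb, was assigned to Inhbb and had an enrichment of 6.55.

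Gli3, the main repressor when ligand is absent, had a peak over its TSS, chr13:15462601-15464900, with 50.3 treatment against 16 input reads (enrichment 7.17). It was centred 27 bp from the TSS and no coding base of Gli3 lay in a peak. The 2 other assigned peaks were the most distant of the 16. One, chr13:15251151-15252750, lay 211773 bp upstream on an L1Md_T element with 36.5 treatment against 2 input reads (enrichment 36.1), above 99.7% of peaks. The other, chr13:15266651-15267850, lay 196473 bp upstream on an L1Md_F2 element with 25 treatment against 3 input reads (enrichment 16.4).

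Their treatment reads were low, above 27.2% and 4.62% of peaks, and their input reads were lower still. At most 3 input reads were found in 126 peaks, or 0.723% of the list, and the lowest enrichment among these was 12.9. Of the 126, 68.3% were on LINE-1 elements. The part of the low input in the enrichment of both Gli3 peaks was not tested. In the same interval upstream of Gli3, 3 more LINE-1 peaks were assigned to AW209491, with enrichments of 6.13, 7.1 and 7.5.

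Hhip, a membrane protein that binds and traps the ligands, had 1 peak, chr8:80057051-80058600, over its TSS. Its centre lay 183 bp downstream in the 5′ UTR, where it had 55.8 treatment against 13.8 input reads, and its enrichment was 8.96, above 78.7% of peaks. Per kb it had 36 treatment reads, above 87.7% of peaks. No other peak lay between Hhip and its nearest reference genes, Anapc10 and Gm30605.

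**Figure D3:**
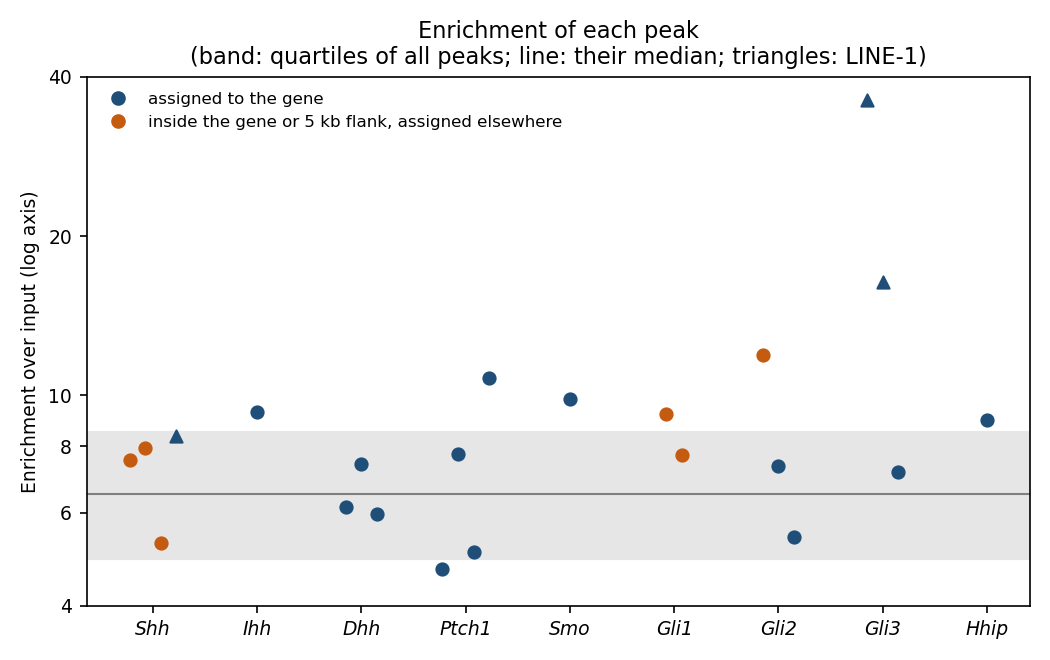
Enrichment over input (log axis) of each peak at the 9 genes, with the quartiles of all peaks as a grey band and their median of 6.5 as a line. Blue points are assigned to the gene, orange points to another gene, and triangles are LINE-1 peaks. Peaks at the start sites lie between 5.25 and 10.8, and the values of 36.1 and 16.4 belong to LINE-1 peaks upstream of Gli3.

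Over the 16 assigned peaks the median enrichment was 7.56, against 6.5 over all peaks, and 11 of the 16 were above that median. In treatment reads 9 of the 16 were above the median of all peaks and 5 above the upper quartile of 64.6. Per kb the median of the 16 was 25.4 treatment reads, against 25.1 over all peaks. The 10 Hedgehog peaks within 5 kb of the TSS had a median of 54.8 treatment reads, against 52.6 for all such peaks, and a median enrichment of 7.38 against 6.74. The other 6 had a median of 33 treatment reads and an enrichment of 9.61, against 38.2 and 6 for all peaks beyond 5 kb. LINE-1 peaks made up 3 of these 6, against 36.4% of all peaks beyond 5 kb. Without LINE-1 peaks, a setting chosen after seeing the data, the median enrichment fell to 5.4 over the 3 that were left, against 6.16 over all such peaks. The highest of these 3, at 10.8, was the Ptch1 peak at the second start site. The 3 LINE-1 peaks had a median of 16.4, against 5.3 over all LINE-1 peaks, and 2 of them are the Gli3 peaks with 2 and 3 input reads.

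The share of each gene inside peaks was set beside that of genes of like length. It was above their upper quartile for 7 of the 9 genes. The share at Shh exceeded that of 99.7% of such genes, at Ptch1 97%, at Dhh 95.8%, at Ihh 95.4%, at Gli1 90.7%, at Gli2 90.6% and at Smo 77.2%. On this scale Ptch1 lay between Shh and both other ligands. Gli3, with 0.442% of the gene in peaks, and Hhip, with 1.04%, were just below the medians of 0.521% and 1.24%. In coding sequence the upper quartile over all protein-coding genes was 13.5%, and 7 of the 9 exceeded it. Hhip, with 13.3%, and Gli3, with 0%, did not.

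**Figure D4:**
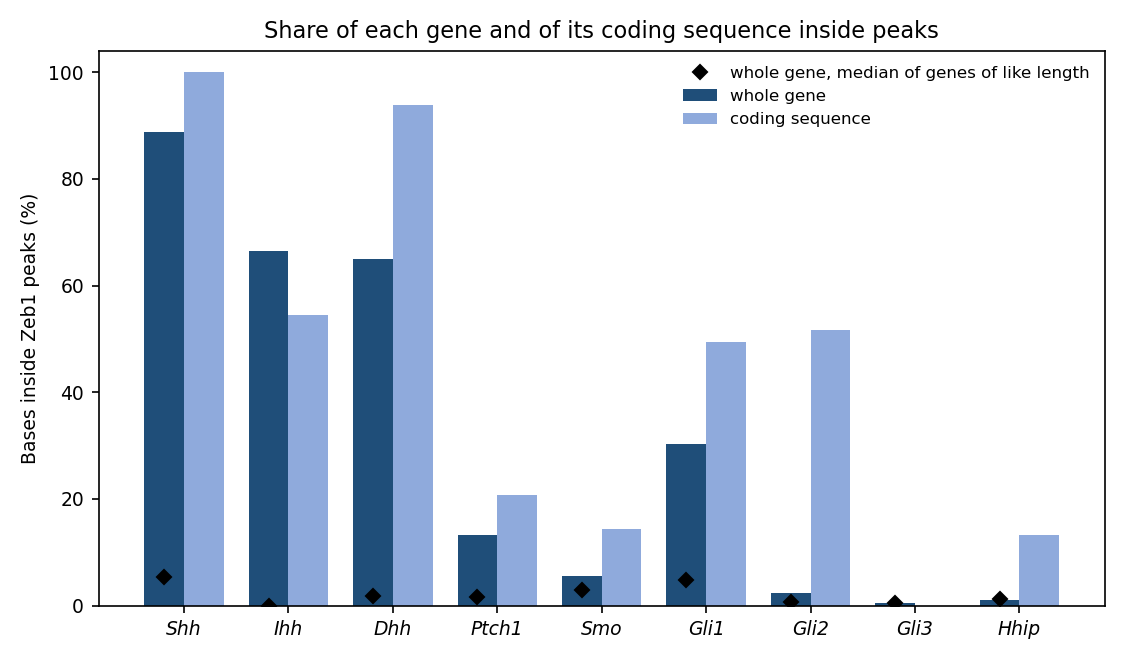
Percent of bases inside Zeb1 peaks for each whole gene (dark bars) and its coding sequence (light bars), whatever gene the peaks were assigned to. Diamonds give the median of protein-coding genes within 1.5-fold of the length. Shh reaches 88.7% of the gene and 100% of its coding sequence, and at Gli2 the share is 2.4% of the gene and 51.6% of the coding sequence.

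Promoter sequences from RefSeq (GRCm38.p6, the assembly of mm10) were matched for 7 of the 9 genes. Shh and Gli1 were not among them. Each covers 250 bases before and 50 after the start, and all 7 lay wholly inside Zeb1 peaks, against 32.2% of the 32851 promoters of the table, which also holds promoters of non-coding genes. These 7 are the genes already counted with an assigned peak within 5 kb of the TSS. The ratio of observed to expected CpG was above the median of all promoters, 0.384, in all 7 and above the upper quartile of 0.75 in 4. Most of those promoters lie outside peaks. Over whole peaks within 5 kb of the TSS, the median ratio was 0.644 at the Hedgehog genes and 0.643 for all such peaks. Among the 7 promoters the lowest was Dhh with 0.438 and the highest Gli3 with 1.12, followed by Ptch1 with 1.09. The 250 upstream bases of these 3 are printed to show this range, 5′ to 3′ along the gene, with each CpG in capitals. They hold 9, 34 and 41 CpG in Dhh, Gli3 and Ptch1.
Dhh, chr15:98898541-98898790, minus strand: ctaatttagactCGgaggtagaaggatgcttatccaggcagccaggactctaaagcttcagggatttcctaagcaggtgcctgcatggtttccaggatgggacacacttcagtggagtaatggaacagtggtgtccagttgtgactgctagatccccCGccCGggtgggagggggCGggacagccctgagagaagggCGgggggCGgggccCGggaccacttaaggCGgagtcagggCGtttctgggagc
Gli3, chr13:15463473-15463722, plus strand: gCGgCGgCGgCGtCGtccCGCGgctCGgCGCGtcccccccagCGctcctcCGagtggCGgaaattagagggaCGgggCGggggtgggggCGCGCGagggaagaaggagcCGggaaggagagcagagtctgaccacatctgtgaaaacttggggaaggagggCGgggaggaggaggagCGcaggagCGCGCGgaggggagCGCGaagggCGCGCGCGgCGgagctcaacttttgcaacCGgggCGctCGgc
Ptch1, chr13:63565736-63565985, minus strand: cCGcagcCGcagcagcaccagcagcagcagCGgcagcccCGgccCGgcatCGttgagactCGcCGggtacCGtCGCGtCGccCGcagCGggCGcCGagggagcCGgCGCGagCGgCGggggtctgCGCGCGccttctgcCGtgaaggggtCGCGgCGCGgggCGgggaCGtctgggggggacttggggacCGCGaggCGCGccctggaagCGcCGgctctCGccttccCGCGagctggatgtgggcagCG

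Zeb1 motif matches were sought on both strands as CNCACCTG, CNTACCTG, TNCACCTG and TNTACCTG, of which CNCACCTG and TNCACCTG contain the core CACCTG. A match is a run of letters and not a measured site. None of the 7 promoters held a match in its 300 bases, against 16.9% of all promoters, and CACCTG alone was found in 1 of the 7, against 20.2%. The promoter was that of Dhh, where the letters start 177 bases before the TSS on the opposite strand and read caggtg in the sequence above.

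Over whole peaks, 11 of the 16 assigned peaks had at least 1 match, or 68.8% (95% Wilson interval 44.4 to 85.8%, counting error only), and they held 29 matches in all. Among all peaks within 10% of the length of each, the mean share was 76.9%. Several of the 16 peaks share a gene and are not independent draws, so the interval is no test of this difference. The 5 peaks without a match were the TSS peaks of Gli2 and Hhip, the second peak of Dhh and 2 upstream peaks of Ptch1. The Ptch1 peak in exon 23 had 6 matches, or 4.29 per kb, above 99.9% of all peaks, although its enrichment was the lowest of the 16. The Ihh peak, the longest, had 5, or 0.862 per kb. The letters CAGGTA and CAGGTG, the opposite strand of the motif, are also common at the start of introns, and 14.9% of the 32824 matches in all peaks spanned a border of an exon and an intron. At the Hedgehog genes 2 of the 29 did, 1 in the Ihh peak and 1 in the TSS peak of Gli3, where CGTACCTG is the only match.

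Windows of 60 bases around matches are printed for 2 ligands, the transducer and 2 peaks away from start sites, with the match in capitals and each read 5′ to 3′ along the strand of the match. The Ihh match, 773 bp downstream of the TSS, spans the border of exon 1 and intron 1. The Dhh match lies in intron 1, 590 bp downstream of the TSS and 25 bp from the centre of its peak. The Smo match lies 606 bp upstream of the TSS and is the only one in that peak. The Ptch1 peak in exon 23 is shown by a match in coding sequence, and Gli3 by a match 85 bp from the centre of the peak on the L1Md_F2 element.
Ihh border of exon 1, chr1:74950869-74950928, plus strand: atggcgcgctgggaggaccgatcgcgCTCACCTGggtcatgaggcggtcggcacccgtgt
Dhh intron 1, chr15:98897920-98897979, minus strand: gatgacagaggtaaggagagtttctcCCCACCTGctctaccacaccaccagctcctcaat
Smo upstream, chr6:29734861-29734920, plus strand: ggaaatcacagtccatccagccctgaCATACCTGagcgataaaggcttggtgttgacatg
Ptch1 exon 23, chr13:63511990-63512049, minus strand: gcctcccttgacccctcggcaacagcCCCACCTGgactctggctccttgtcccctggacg
Gli3 distal, chr13:15267305-15267364, minus strand: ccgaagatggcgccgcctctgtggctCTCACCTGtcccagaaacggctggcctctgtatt

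The Gli motif GACCACCCA, searched on both strands, is rare. It was found in 2.4% of all peaks and in 0.253% of promoters. It was present in 2 of the 16 assigned peaks, both of Ptch1, where the mean share among peaks of like length over the 16 was 2.52%. In none of the 7 promoters of the table was it found. The Ptch1 promoter among the 7 is that of NM_008957 and not that of the second start site.

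At the main Ptch1 peak the motif lay 704 bp upstream of the TSS, at chr13:63566435-63566443, and shared 2 bases with the only Zeb1 match of that peak, CCTACCTG. At the upstream peak it lay at chr13:63573465-63573473, centred 9 bp upstream of the second start site. Both are printed along the minus strand, the strand of Ptch1, and the second ends at the base before the start site. Capitals mark the Zeb1 and Gli matches together in the first window, where the Gli letters are read on the opposite strand, and the Gli match in the second. Inside Gli1, the peak assigned to Arhgap9 also held a match, at chr10:127331430-127331438 in coding sequence of exon 13.
Ptch1 704 bp upstream, chr13:63566410-63566469, minus strand: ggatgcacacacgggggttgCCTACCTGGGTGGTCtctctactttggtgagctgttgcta
Ptch1 second start, chr13:63573461-63573499, minus strand: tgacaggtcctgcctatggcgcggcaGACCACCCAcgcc

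The other genes of the pathway were 41, taken from a list by role. An assigned peak within 5 kb of the TSS was present for 28 of the 41, against 45.0% of protein-coding genes, and any assigned peak for 34, against 53.2%. Taking the best such peak of each of the 28, the median enrichment was 7.71, against 7.73 for the 7 Hedgehog genes above and 6.84 for all protein-coding genes with one.

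By role, and for peaks within 5 kb of the TSS, target genes had the most, 9 of 10. Their best peaks had a median enrichment of 7.72. In treatment reads, not divided by peak length, their median was 105, against 53 for all protein-coding genes with one. Some of these peaks are long, such as Foxf1 at chr8:121080101-121087450 and Nkx2-2 at chr2:147182201-147188750. Reads per kb are not given for them, so their read numbers cannot be told apart from peak length. Over all 28 genes, with these 9 among them, the median enrichment was 7.71. Foxf2, a forkhead factor of gut and palate mesenchyme, had the highest enrichment among the target gene peaks within 5 kb, 10.6. Farther out, Foxa2 had a peak with 21.7 at 5514 bp, from 34.4 treatment and 3.86 input reads. Nkx6-1 had a LINE-1 peak with 23.4 at 352211 bp, from 62.4 treatment and 6 input reads. Both were named after their values were seen. Both input numbers are below the lower quartile of all peaks, 11.9. Receptors and co-receptors had 4 of 6, led by Gpc3, a glypican, with 12.9, from 37.5 treatment and 5.5 input reads. In the primary cilium and Smo group it was 8 of 12, led by the ciliary kinesin Kif7 with 34, a peak with 31 treatment and 2 input reads. Among the genes that control Gli proteins 6 of 10 had one. The casein kinase Csnk1a1 led them with 15.5, from 56 treatment and 7.2 input reads. In ligand processing and release it was 1 of 3, the acyltransferase Hhat with 4.36.

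Without any assigned peak were 7 of the 41, which were Scube2, Ift172, Stk36, Spop, Cul3, Gsk3b and Foxm1. A peak centre lay within 5 kb of a reference TSS of Ift172, Gsk3b and Foxm1 and carried the symbol of another gene, Fndc4, BC031361 and Rhno1, and at Ift172 that peak did not overlap the gene. Counted by position at any reference TSS, 33 of the 41 had a peak within 5 kb, against 51.5% of protein-coding genes.

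**Figure D5:**
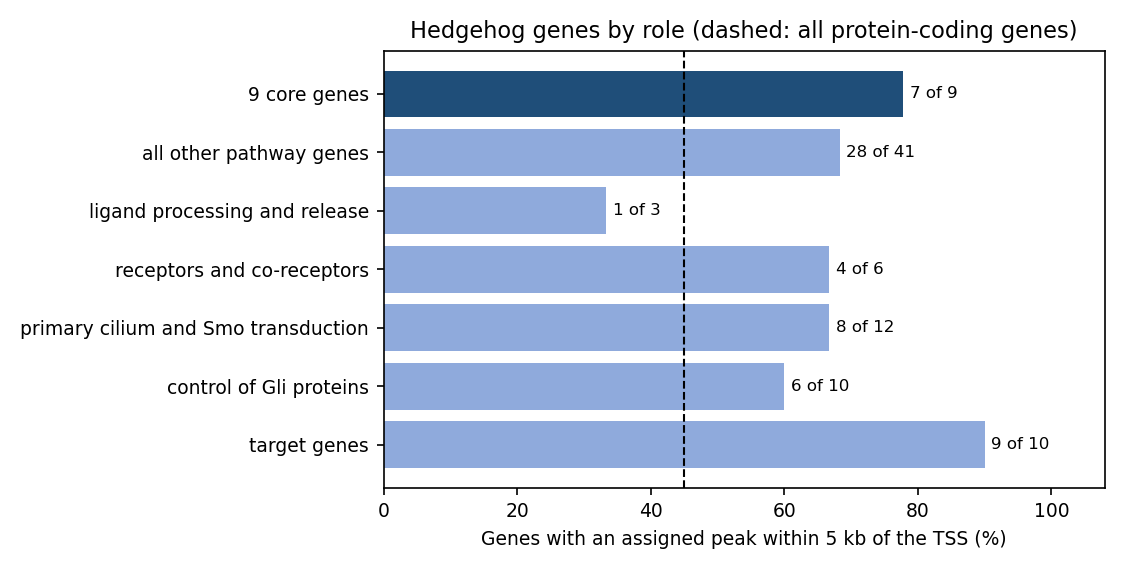
Percent of genes with an assigned Zeb1 peak whose centre is within 5 kb of the TSS, for the 9 core genes (dark bar) and for other genes of the pathway by role (light bars), with the counts beside the bars. The dashed line is the share of all protein-coding genes, 45.0%. Only ligand processing and release, with 1 of 3, is below it.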

How the data were processed

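The authors trimmed the reads with Reaper, drew 30 M per sample, kept unique STAR 2.4.2a alignments to mm10, removed duplicates with Picard 1.136, and ran PeakRanger for every ChIP library with the input as control. Peaks of at least 20 treatment reads and 2-fold enrichment in at least 2 of 3 libraries were unified, and HOMER 4.7 assigned 1 gene to each. The deposited read columns are a signal, the mean reads per peak. The deposited enrichment is a ratio normalized for mapped reads and averaged over libraries. At the main Ptch1 peak it was 2.06 times the quotient of the mean reads. The p-value deposited for each of the 17435 peaks was 0 and ranked none of them.

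Peaks were placed on 45756 curated RefSeq transcripts of GRCm38.p6 with 21000 protein-coding genes, and positive distances lay downstream of the TSS at the members. Of 12271 gene names, 11626 were reference symbols and 604 unique synonyms. Members and lists were chosen with earlier results of these data known. Named genes were the members, other pathway genes without an assigned peak or with the highest enrichment of their role, the genes given to peaks in or next to members, and Lmbr1. Rnf32, Fndc4, BC031361, Rhno1, Anapc10 and Gm30605 were named after their values were seen. Counting and motif steps were tested on simulated data. Python 3.11.15, NumPy 2.4.6, pandas 2.3.3 and SciPy 1.17.1 were used.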

Additional observations from a re-analysis of the deposited data

How the results depend on the processing

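The alternatives were other distances (1 and 10 kb, and 50 kb for assigned peaks), an enrichment of at least 5, position in place of assignment, and other motif searches. Counts of members with an assigned peak ranged from 7 to 9, members with a peak within 5 kb from 6 to 8, and other pathway genes from 24 to 33, where leaving out LINE-1 peaks and counting all peaks in the gene or at reference TSSs, whatever their assignment, were chosen after seeing the data. The share of all protein-coding genes moved too. For an assigned peak it was 53.2%, with 50.6% within 50 kb (8 members), 43.5% at an enrichment of at least 5 (8), 49.7% without LINE-1 peaks (7), and by position 53.7% in the gene (9) and 58.2% with 5 kb flanks (9). For a peak within 5 kb it was 45.0%, with 41% at 1 kb (6 members and 24 other pathway genes), 46.7% at 10 kb (7 and 28), 37% at an enrichment of at least 5 (7 and 24), and at reference TSSs 45.3% for assigned peaks (7 members) and 51.5% for any (8 and 33). The median enrichment of 7.56 became 3.44 as a ratio of mean reads with 1 added to each, against 3 over all peaks. That ratio leaves out the scaling for mapped reads and is taken after averaging. The median enrichment ranged from 7.36 to 9.12 otherwise. The share of peaks with the Zeb1 motif, 68.8%, became 31.2% in the 500 bp at the peak centre, a shorter sequence, where all peaks had 34.6%, and was 75% with CACCTG (82.1% of all peaks) and 50% on the forward strand (54.4%). No paired analysis was possible because the list holds 1 mean per peak, which also kept fits without each library from being run. With 1 mean per peak, counting error and the spread between libraries cannot be told apart.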
